A study of Mus musculus with 10 samples.

Results

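The oxidative phosphorylation subunits are the nuclear-encoded proteins of the respiratory chain and of ATP synthase. They were taken by symbol from the gene table: names that begin with Nduf followed by a, b, c, s or v and a digit (complex I), Sdha to Sdhd (complex II), Uqcr (complex III), Cox followed by 4 to 8 (complex IV) and Atp5 (complex V). The rule found 84 genes among the 23370 gene symbols of the table, namely 37 for complex I, 4 for complex II, 8 for complex III, 18 for complex IV and 17 for complex V. It used no measured value to choose the genes, and where a symbol had several transcripts the one of highest mean level stood for it. Total RNA was sequenced from mouse embryonic fibroblasts (MEFs), connective tissue cells grown out of embryos, of C57BL/6 mice with the genotype H3.3b-HA knock-in. All 10 libraries carry this allele, in which an HA-tagged H3.3 cDNA stands in place of the histone gene H3f3b, so no unmodified cells were compared. The libraries form a pretreated and a naïve arm, each at 0, 1, 2, 4 and 6 h after interferon-beta at 100 U/ml, an antiviral cytokine. Each arm and time had 1 library. What the pretreatment consisted of (agent dose, duration, washout), the age of the embryos and the number of animals are not stated in the labels.

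Complexes I to IV pass electrons from NADH and succinate to oxygen and, except for complex II, pump protons across the inner mitochondrial membrane, and complex V lets the protons flow back to make ATP. Most of the subunits are encoded in the nucleus and imported, while a small set of core subunits is encoded by the mitochondrial genome. Fibroblasts express the common isoform of each subunit, and separate genes supply isoforms typical of muscle, lung or testis.

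Depth ranged from 83.9 to 268 M (mega) counts per library and was highest at 4 and 6 h in both arms. The labelled cell type was checked on markers: 8 fibroblast markers summed to 9165 to 13382 RPKM (reads per kilobase of transcript, scaled to depth), while none of 6 marker lists of other cell types exceeded a sum of 12.7 RPKM in any library. In the 0 h libraries the interferon check genes summed to 7786 RPKM in the pretreated arm and 1013 RPKM in the naïve arm, and 7 of 12 were called higher at 2 to 6 h. The pretreated 0 and 1 h libraries stood apart in non-coding RNA: the ribosomal precursor Rn45s took 3.90% and 2.85% of their counts, against at most 1.51% in the other 8 libraries. Both arms were stimulated and neither has an unstimulated counterpart after 0 h, so a change from 0 h and an effect of time in culture cannot be told apart. Nothing in the labels says that libraries came from separate cultures, so p-values do not measure a spread between cultures. They rest on the spread left after arm and time are fitted. In the model of arm and time, that spread holds any difference between the arms in their time course.

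The subunit genes were abundant and steady. Of the 84 genes, 77 reached 1 RPKM in at least 2 libraries and were tested, as part of 12168 genes in all. Their mean level had a median of 65.0 RPKM, against 11.1 RPKM for all genes tested, and ran from 2.85 RPKM for Cox6a2 to 524 RPKM for Atp5b, the catalytic beta subunit of ATP synthase. The highest of the 10 libraries exceeded the lowest by a median of 1.44-fold per subunit gene, against 1.72-fold per gene tested. This ratio was smallest for Sdhb, the iron-sulfur subunit of complex II, at 1.18 and largest for Atp5k, the e subunit of ATP synthase, at 3.69. The lowest count of any tested subunit in any library was 125, for Cox6a2. The 7 genes that did not pass the filter were Cox4i2, Cox6b2, Cox7a1, Cox7b2, Cox8b, Cox8c and Ndufa4l2. The Cox genes among them are isoforms known from other tissues. Cox7b2 was at 0 RPKM in every library. Among the most abundant genes of their complexes, Ndufb9 of complex I averaged 110 RPKM, Uqcrq of complex III 99.9 RPKM and Cox6c of complex IV 134 RPKM over the 10 libraries.

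Summed over all 84 genes, the level was 6720, 6607, 5843, 5371 and 6002 RPKM at 0, 1, 2, 4 and 6 h in the pretreated arm. In the naïve arm it was 7163, 7022, 6235, 5743 and 5738 RPKM. In both arms the 2, 4 and 6 h libraries thus lay below the 0 and 1 h libraries, and the pretreated sum was below the naïve one at every time but 6 h. On the RPKM scale the median of all genes tested also lay below 0 h at these later times. At 4 h it was -0.09 in log2(RPKM + 1) in each arm. Complex V summed to 2170, 2006, 1862, 1607 and 1794 RPKM over the pretreated course and to 2280, 2285, 2000, 1728 and 1684 RPKM over the naïve course. Complex II, the smallest group, summed to 244, 256, 254, 211 and 212 RPKM in the pretreated arm and to 275, 251, 260, 223 and 215 RPKM in the naïve arm. In bulk RNA, fewer cells of a type and less RNA per cell cannot be told apart.

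**Figure D1:**
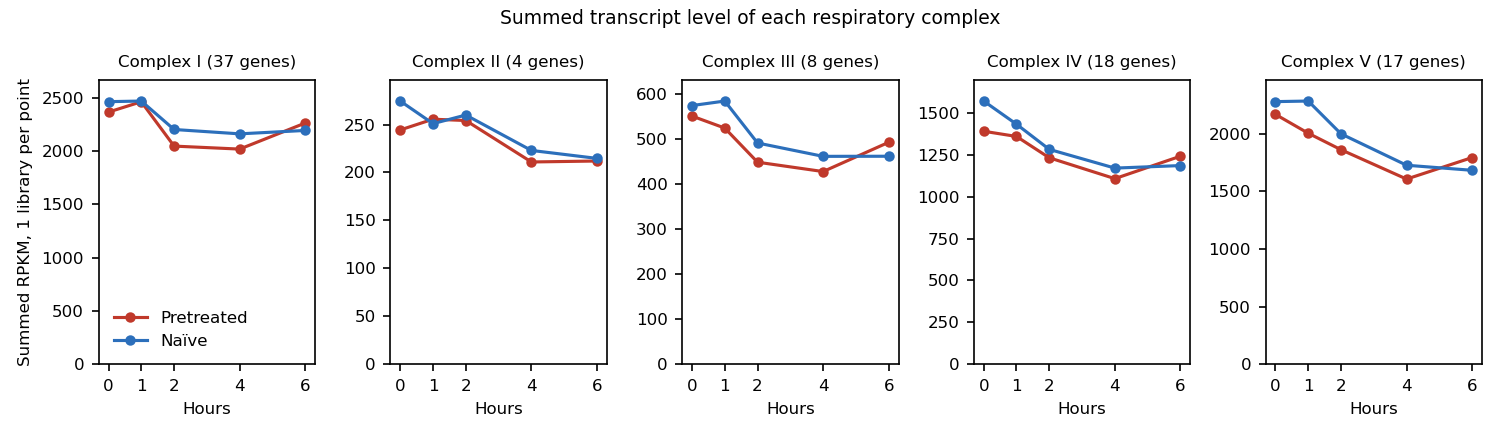
Summed RPKM of the genes of each complex (y axis, from 0) against hours after interferon-beta (x axis), with 1 library per point, for the pretreated arm (red) and the naïve arm (blue). The complex V sum is 1794 RPKM in the pretreated and 1684 RPKM in the naïve arm at 6 h, below 2170 and 2280 RPKM at 0 h.

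Levels averaged over 2, 4 and 6 h were set against 0 h across both arms by edgeR's quasi-likelihood test on the counts, adjusted by Benjamini-Hochberg over all genes tested. At an adjusted p under 0.05, 21 subunit genes fell (27.3% of 77) and 5 rose (6.49%), while 51 were not called. Over all genes tested, 20% were called lower and 19.9% higher, 39.9% in all, against 33.8% of the subunit genes. The median log2 fold change was -0.16 over the subunit genes and -0.01 over all genes tested, and 57 of the 77 subunit genes had a value below 0. The changes were small: the largest fall was 0.78 on the log2 scale (Atp5k) and the largest rise 0.53 (Ndufc1). With the authors' RPKM scaling in place of the trimmed mean of M values, 28 subunit genes were called lower and 1 higher, while over all genes 3015 were called lower and 2021 higher, against 2438 and 2421. The test leans on the 0 h libraries. Without the naïve 0 h library 0 subunit genes and 8 genes in all were called, and without the pretreated 0 h library 4 subunit genes were called, all lower, among 2075 genes. Without the naïve 6 h library 8 subunit genes were called lower and 1 higher, beside 1508 lower and 1714 higher of all genes. Without the pretreated 4 h library 12 were called lower and 1 higher, beside 2054 and 2136 of all genes. Without the naïve 2 h library 16 were called lower and 0 higher, beside 1938 and 1964 of all genes. Without the naïve 4 h library 15 were called lower and 1 higher, beside 1748 and 1949 of all genes.

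Read library by library, 30 subunit genes had all 6 libraries of 2 to 6 h below both 0 h libraries in RPKM and 3 had all of them above. Among all genes tested the same held for 22.9% below and 17.9% above. Of the 21 genes called lower, 19 showed this separation, and of the 5 called higher, 2 did. The calls and the separation use the same libraries, so neither is an independent check of the other. The pretreated 0 h library stood high in non-coding RNA as well. A set of 5 non-coding RNAs summed to 7130, 5257, 2682, 2311 and 2325 RPKM over the pretreated course. It summed to 1943, 2896, 2171, 2532 and 2088 RPKM over the naïve course. The 5 RNAs did not move together, with log2 fold changes at 2 to 6 h from -2.74 to 0.93. The part of these RNAs in the subunit changes was not tested.

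**Figure D2:**
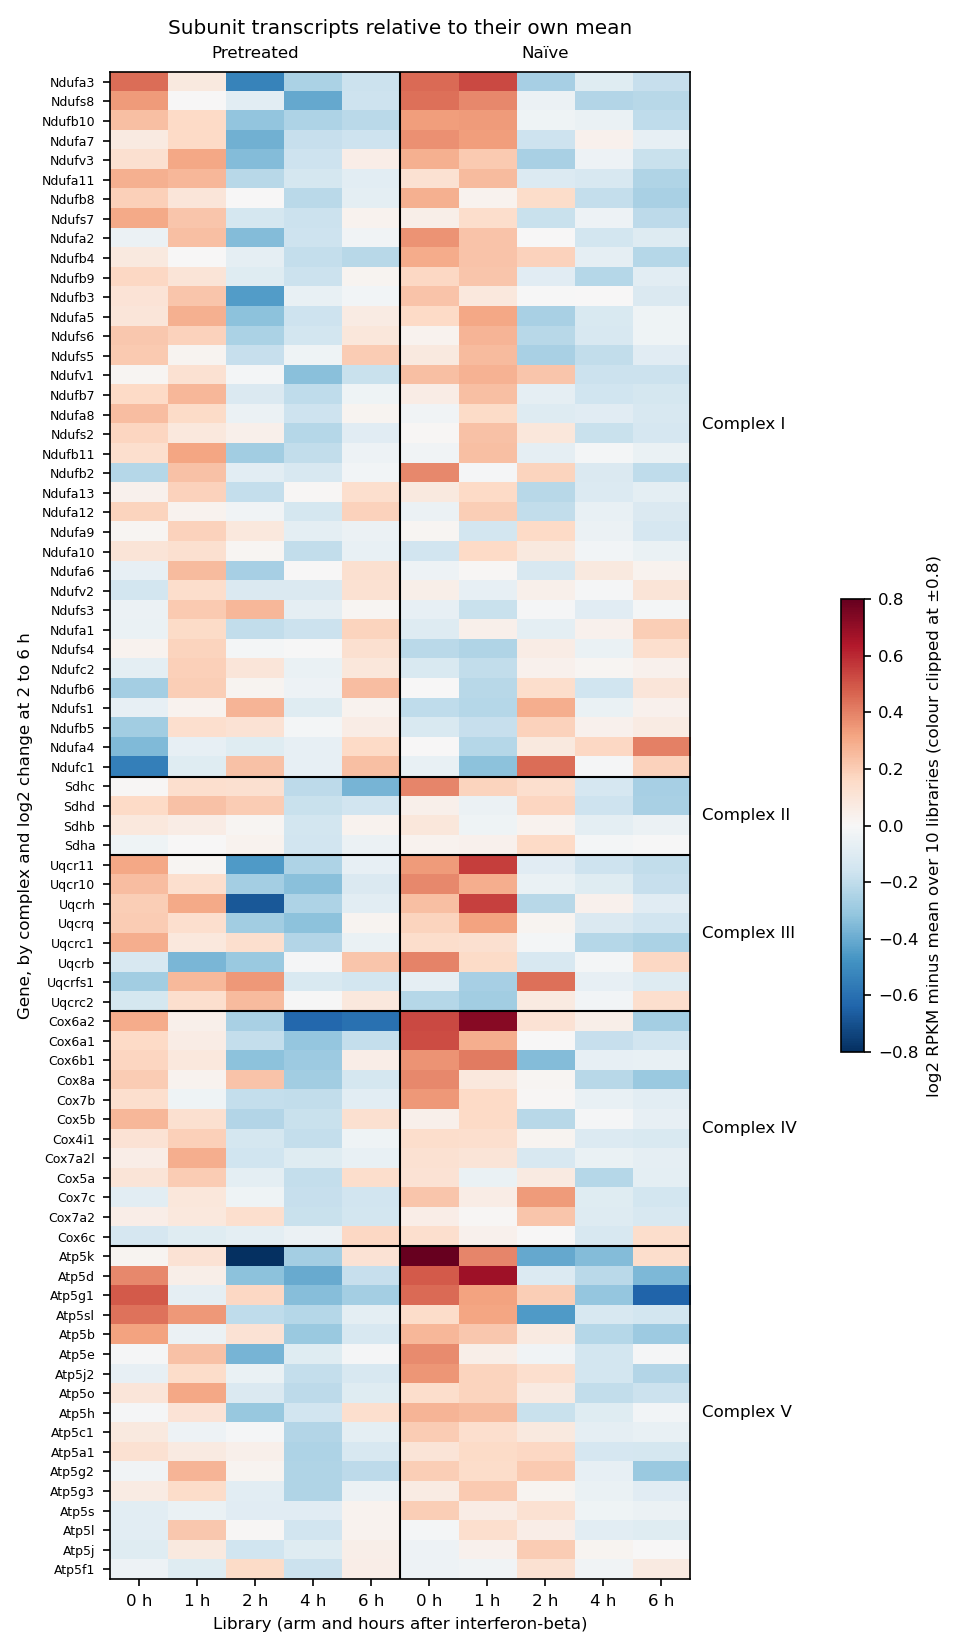
Each row is a tested subunit gene and each column a library, pretreated on the left and naïve on the right; colour is the log2 RPKM minus the gene's mean over the 10 libraries, clipped at ±0.8. Rows run within each complex by the log2 fold change of 2 to 6 h over 0 h, so red at 0 h and blue later marks genes such as Ndufa3, with -0.64, and the opposite marks genes such as Ndufc1, with 0.53.

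Complex I, which oxidises NADH, had 4 genes that rose and 7 that fell of 36 tested, with a median log2 fold change of -0.12. DESeq2 called 4 higher and 8 lower and limma 1 higher and 13 lower. Over all genes tested DESeq2 called 2839 higher and 2780 lower, and limma 2111 higher and 2987 lower. Limma thus called more genes lower than higher over all genes as well, which also applies to its counts for the other complexes. After counts were rescaled by transcript GC content (GC rescaling) edgeR called 2 higher and 4 lower in complex I, with a median of 0.02. The 4 rises include that of Ndufa4, which is placed here by its symbol although its protein is now known in complex IV. The steepest fall was that of Ndufa3, an accessory subunit of the membrane arm (chr7:3617373-3620161 of mm10, plus strand). It had 197, 153, 100, 122 and 128 RPKM over the pretreated course and 198, 209, 120, 135 and 128 RPKM over the naïve course. Every library of 2 to 6 h was below every library of 0 and 1 h, and the log2 fold change was -0.64 ± 0.097 (SE; adjusted p = 0.00575 by edgeR's quasi-likelihood test). Ndufs8, a core subunit that holds iron-sulfur clusters (chr19:3908863-3912774, minus strand), had 101, 80.4, 75.5, 60.4 and 71.3 RPKM in the pretreated arm and 109, 104, 77.4, 68.2 and 68.6 RPKM in the naïve arm. It too showed no overlap between 2 to 6 h and 0 h, with a log2 fold change of -0.52 ± 0.089. Ndufb10, Ndufa7, Ndufv3, Ndufa11 and Ndufb8, all accessory subunits, fell by 0.40, 0.31, 0.30, 0.29 and 0.27 on the log2 scale.

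The gene with the largest rise was also in complex I. Ndufc1, a small membrane-arm subunit (chr3:51405479-51408955, minus strand), had 31.2, 42.5, 53.4, 43.5 and 53.8 RPKM in the pretreated arm and 43.7, 36.3, 61.9, 45.2 and 51.8 RPKM in the naïve arm. The naïve 4 h library was only just above the naïve 0 h library, and the log2 fold change was 0.53 ± 0.14 (adjusted p = 0.022, edgeR). Ndufb5, a membrane-arm subunit, and Ndufs1, the largest core subunit of the matrix arm, rose by 0.34 and 0.28 on the log2 scale. By position, 1 of 7 core genes of the matrix arm rose and 1 fell, 0 of 9 accessory genes of the matrix arm rose and 2 fell, and 2 of 19 accessory genes of the membrane arm rose and 4 fell.

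Complex II, which oxidises succinate and feeds its electrons to ubiquinone, had 0 of 4 genes called at 2 to 6 h by edgeR. At an unadjusted p under 0.05 there was 1 of the 4, against 6225 of the 12168 genes tested. DESeq2 and limma each called 1 gene, Sdhc, as lower. Sdha, the flavoprotein subunit, had 59.0, 60.5, 61.7, 54.5 and 58.6 RPKM in the pretreated arm and 61.7, 62.1, 67.5, 59.7 and 60.3 RPKM in the naïve arm, and its 2 to 6 h libraries lay on both sides of the 0 h libraries. In complex III, which hands electrons to cytochrome c, 4 of 8 genes fell and 1 rose. Uqcr11, a small subunit, had 73.8, 60.1, 43.5, 50.03 and 56.9 RPKM in the pretreated arm and 75.5, 87.2, 55.8, 53.0 and 51.9 RPKM in the naïve arm, and its log2 fold change was -0.46 ± 0.12. Uqcr10, Uqcrh and Uqcrc1 fell by 0.42, 0.37 and 0.26 on the log2 scale. Uqcrc2, the other core protein beside Uqcrc1, had 41.5, 50.3, 54.5, 45.7 and 48.5 RPKM in the pretreated arm and 39.0, 37.8, 48.2, 45.0 and 50.2 RPKM in the naïve arm, with a log2 fold change of 0.34 ± 0.11, and limma did not call it. After GC rescaling neither core protein was called, with 0.01 for Uqcrc1 (adjusted p = 0.916) and 0.12 for Uqcrc2 (adjusted p = 0.338, edgeR), and in the complex 2 genes were called lower and 0 higher. Uqcrfs1, the Rieske iron-sulfur protein, was not called. Uqcrq, with -0.26 ± 0.093, and Ndufb9 of complex I, with -0.21 ± 0.071, were not called by edgeR (adjusted p = 0.0583 and 0.0537) but were called lower by DESeq2 and limma.

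Complex IV, cytochrome c oxidase, had 5 genes that fell and 0 that rose of the 12 tested with a Cox symbol, by edgeR, DESeq2 and limma alike, and 11 of the 12 had values below 0; Ndufa4 is not among them. After GC rescaling 2 were called lower and 0 higher. Cox6a1, the common form of subunit VIa (chr5:115345654-115348955, minus strand), had 260, 242, 204, 188 and 204 RPKM in the pretreated arm and 334, 285, 233, 204 and 210 RPKM in the naïve arm. Its 2 to 6 h libraries lay below those of 0 and 1 h in both arms, with a log2 fold change of -0.45 ± 0.078 (adjusted p = 0.0073, edgeR). Cox6a2, the muscle form of the same subunit, was near the filter at 1.77 to 4.51 RPKM and fell by 0.61 on the log2 scale. Cox6b1, Cox8a and Cox7b fell by 0.37, 0.35 and 0.28. Cox4i1, the common form of subunit IV, which is needed for assembly of the complex, was not called; it had 136, 143, 113, 110 and 122 RPKM in the pretreated arm and 138, 137, 127, 116 and 115 RPKM in the naïve arm.

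Complex V, ATP synthase, had 5 genes that fell and 0 that rose of 17, again by all 3 tools. After GC rescaling 2 were called lower and 1 higher. Atp5d, the delta subunit of the central stalk (chr10:80142315-80145818, plus strand), had 327, 260, 200, 190 and 221 RPKM in the pretreated arm and 353, 402, 233, 217 and 196 RPKM in the naïve arm. All 6 libraries of 2 to 6 h lay below all 4 of 0 and 1 h, with a log2 fold change of -0.63 ± 0.13 (adjusted p = 0.0118, edgeR). Atp5b (chr10:128083307-128090388, plus strand) had 649, 502, 560, 421 and 473 RPKM in the pretreated arm and 622, 603, 545, 443 and 424 RPKM in the naïve arm, with -0.35 ± 0.097. Its catalytic partner Atp5a1, the alpha subunit, was not called. Atp5k (chr5:108433253-108434378, minus strand) had 16.2, 17.3, 9.04, 13.2 and 17.3 RPKM in the pretreated arm and 33.3, 20.9, 12.0, 12.5 and 17.6 RPKM in the naïve arm. The naïve 0 h library was the highest by far, and the pretreated 6 h library exceeded the pretreated 0 h library. The log2 fold change of -0.78 ± 0.21 became -0.31 without the naïve 0 h library and -1.17 without the pretreated 0 h library. Atp5sl, which bears an Atp5 name but is not a structural subunit, fell by 0.43.

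**Figure D3:**
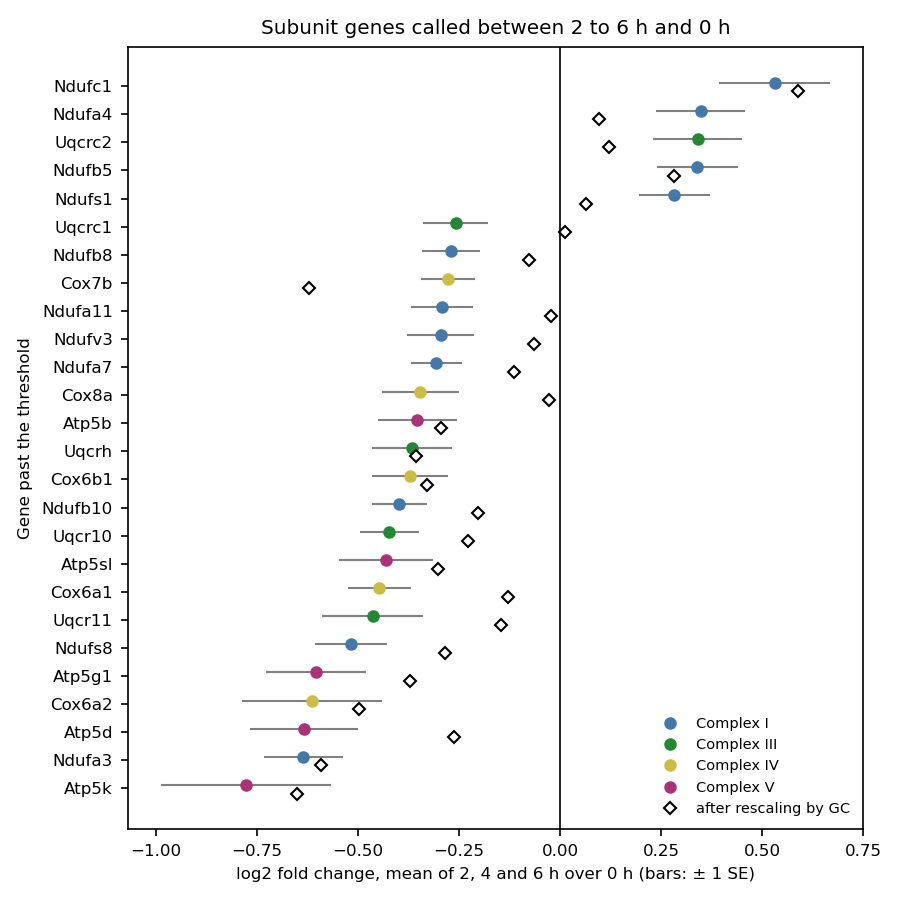
The 26 subunit genes called between 2 to 6 h and 0 h, ordered by log2 fold change (x axis; filled points coloured by complex, bars ± 1 SE), with the value after counts were rescaled by transcript GC content (open diamonds). Cox7b moves to -0.62 and Uqcrc1 to 0.01 after the rescaling.

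Base composition moved with the changes. Over 11913 genes with a known transcript GC share, the 1192 lowest in GC had a median log2 fold change of 0.40 at 2 to 6 h, with 50.8% called higher and 2.52% called lower. The 1192 highest in GC had a median of -0.36, with 4.03% called higher and 47.1% called lower. Across genes, which are not independent replicates, Spearman's rho between GC share and log2 fold change was -0.50 over all 11913 genes and -0.54 over the 77 subunit genes, where all values come from the same 10 libraries. The subunit genes called lower had a median GC share of 55.5%, the genes called higher 45.1% and those not called 50.5%, against 50.3% for all genes. Their transcripts were also short, with a median of 745 bases against 2827 bases.

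The counts were therefore rescaled in each library by 20 bins of GC share, an alternative chosen after seeing the data. After it, 11 subunit genes were called lower and 3 higher, against 13.9% lower and 13.9% higher of all genes with a GC share, and the median of the subunit genes was -0.04. Called lower with and without the rescaling were Ndufa3, Ndufs8, Uqcr10, Uqcrh, Cox6b1, Cox7b and Atp5g1, and called higher in both was Ndufc1. The other 14 falls and 4 rises were no longer called, among them Atp5d (-0.26, adjusted p = 0.0769 by edgeR) and Cox6a1 (-0.13, adjusted p = 0.249). Cox7b, a complex IV subunit whose transcript is poor in GC at 42.0%, had a larger fall after rescaling, at -0.62 against -0.28. Ndufa13 and Atp5j were called higher, and Atp5s, Ndufb3, Ndufv2 and Sdhc lower, by edgeR with the rescaling and not without it.

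**Figure D4:**
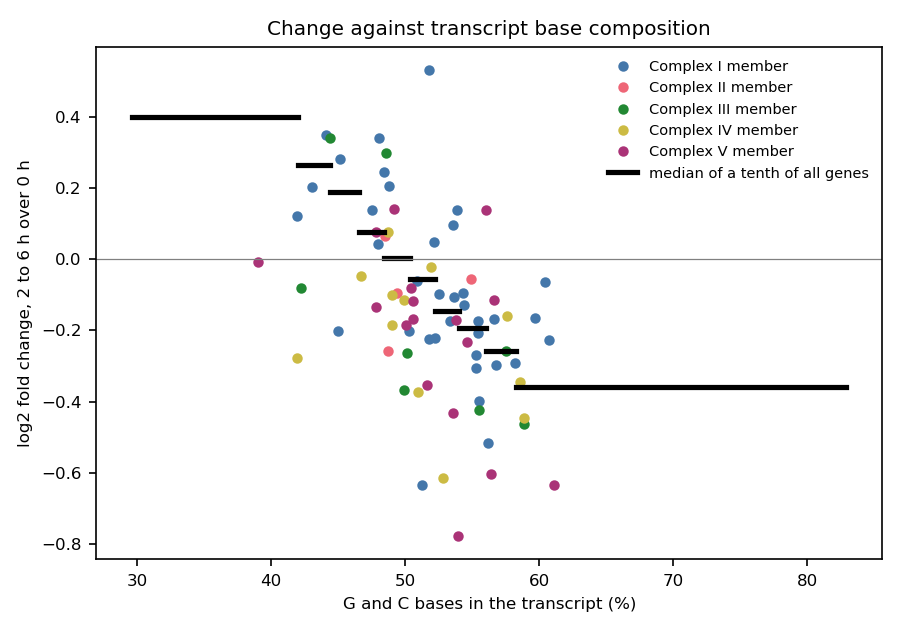
Log2 fold change of 2 to 6 h over 0 h (y axis) against the GC share of the transcript in percent (x axis) for the 77 tested subunit genes (points, coloured by complex) and the median of each of 10 equal bins of all genes by GC (black bars spanning the bin). The bars step down from 0.40 to -0.36, and the points lie on both sides of them.

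Against the 0 h library of its own arm, the median subunit gene stood at 0.07, -0.19, -0.28 and -0.12 in log2(RPKM + 1) at 1, 2, 4 and 6 h in the pretreated arm and at -0.02, -0.14, -0.24 and -0.24 in the naïve arm. The medians of all genes tested were 0.01, -0.05, -0.09 and -0.03 in the pretreated arm. In the naïve arm they were -0.01, -0.01, -0.09 and -0.08. A fall of 2-fold or more was reached in the naïve arm by Atp5k at 2 and 4 h and by Atp5g1 at 6 h, where 1.27%, 3.19% and 3.70% of all genes did so, and in the pretreated arm by 0 subunit genes at 2, 4 and 6 h, against 1.11%, 1.92% and 0.616%. These are single libraries with no test.

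At 1 h against 0 h no gene passed the threshold in edgeR, which is 0% of the 12168 genes. An unadjusted p under 0.05 was found for 0 of the 77 subunit genes, against 1383 of all genes. DESeq2 called 236 genes (1.94%) and limma 5 (0.0411%), with 0 subunit genes in either. At 6 h against 0 h, 15 subunit genes fell and 2 rose by edgeR, against 15.4% lower and 17.3% higher of all genes. After GC rescaling 5 were called lower and 2 higher, against 10.8% lower and 11.7% higher of all genes. The genes that rose without the rescaling were Ndufc1 (0.57 ± 0.16) and Ndufa4 (0.52 ± 0.13). With it they were Ndufc1 and Ndufa13, and Ndufa4 stood at 0.25 (adjusted p = 0.126, edgeR). The largest fall at 6 h was that of Atp5g1, at -0.86 ± 0.16 (adjusted p = 0.0117, edgeR). Each arm has 1 library at each time, so leaving out any 0 h or 6 h library leaves a lone library at that time. No counts are read from those fits here, and the range over all left-out libraries is given with the dependence on processing. Without the naïve 2 h library 11 subunit genes were called, among 3383 genes.

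The later libraries were also set against the early ones without using 0 h. Between the mean of 4 and 6 h and the mean of 1 and 2 h, 5 subunit genes fell and 0 rose, against 9.49% lower and 9.74% higher of all genes. They were Atp5g1 (-0.48 ± 0.11), Sdhc (-0.33 ± 0.082), Atp5g2 (-0.31 ± 0.075), Ndufv1 (-0.30 ± 0.057) and Sdhd (-0.27 ± 0.068). Sdhc and Sdhd are the membrane anchors of complex II. Sdhc had 100, 109, 109, 86.0 and 76.9 RPKM over the pretreated course and 130, 112, 109, 90.5 and 82.6 RPKM over the naïve course. Sdhd had 35.3, 37.1, 36.4, 28.0 and 28.4 RPKM in the pretreated arm and 32.5, 30.6, 35.7, 28.2 and 26.4 RPKM in the naïve arm, so in both genes the 4 and 6 h libraries lay below all the others. Sdhc, Sdhd and Atp5g1 were also called after GC rescaling, with 8.56% lower and 8.55% higher of all genes. Over all genes 50.6% of the calls were higher ones, against 36.3% with the authors' RPKM scaling. Under that scaling 14 subunit genes were called, all lower, beside 1607 lower and 915 higher of all genes. Leaving out the pretreated 2 h or 4 h library left 0 subunit genes called, where 718 and 1319 of all genes were called. The same held without the naïve 2, 4 or 6 h library, where 51, 282 and 218 of all genes were called. Without the naïve 1 h library 1 subunit gene was called among 272 genes, and without the pretreated 6 h library 2 among 1874 genes.

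Pretreatment was tested across all times, with time as a term. By edgeR 0 of the 77 subunit genes were called between the pretreated and the naïve arm, against 1.27% of all genes (0.386% higher and 0.879% lower). At an unadjusted p under 0.05 there were 10 of the 77, against 2660 of the 12168 genes tested. DESeq2 called 1, Ndufa7, and 11.3% of all genes, while limma called 0 subunit genes and 1.68% of all genes. The 3 genes of smallest p were Ndufa7, Cox6a2 and Ndufv1, each lower in the pretreated arm, with log2 differences of -0.22 ± 0.050, -0.48 ± 0.14 and -0.17 ± 0.051 and adjusted p-values of 0.078, 0.118 and 0.122 by edgeR. Ndufa7, an accessory subunit of complex I, had 115, 122, 83.8, 96.0 and 97.5 RPKM over the pretreated course against 141, 138, 97.7, 112 and 105 RPKM over the naïve course. It was lower in the pretreated library at each of the 5 times. The median difference of the subunit genes was -0.04, with 53 of 77 below 0, and complex V had 16 of 17 genes below 0.

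Time by time, with 1 library on each side and no test, the median pretreated minus naïve difference of the subunit genes in log2(RPKM + 1) was -0.05, -0.02, -0.10, -0.07 and 0.06 at 0, 1, 2, 4 and 6 h. The medians of all genes were 0, 0.02, -0.03, -0.01 and 0.05. At 2-fold or more 0 subunit genes stood apart at any of the 5 times. In time order this held for 2.56%, 1.55%, 1.55%, 0.238% and 0.156% of all genes as higher and for 0.838%, 0.814%, 0.953%, 0.131% and 0.214% as lower in the pretreated library. The subunit gene nearest to it was Atp5k at 0 h, with a difference of -0.996. Whether the change after stimulation differed between the arms was tested with an arm by stimulation term, and edgeR called 0 genes (0%). An unadjusted p under 0.05 was found for 2 of 77 subunit genes, against 740 of 12168 genes tested. DESeq2 called 133 genes (1.09%) and limma 15 (0.123%), with 0 subunit genes in either. The smallest p-values were those of Atp5k (0.86 ± 0.28, adjusted p = 0.732), Ndufb2 (0.63 ± 0.22, adjusted p = 0.777) and Ndufa10 (-0.35 ± 0.14, adjusted p = 0.821).

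Where several genes supply 1 position, the mix could be read from RPKM, which is scaled to transcript length. The c subunit of ATP synthase, which forms its rotating ring, is encoded by Atp5g1, Atp5g2 and Atp5g3, whose mature proteins are the same in mammals. Atp5g3 gave the most, from 55.9% to 64.7% of their summed RPKM. Atp5g1 gave 17.4%, 11.3%, 15.1%, 12.5% and 11.9% over the pretreated course and 16.3%, 14.4%, 14.2%, 11.4% and 9.86% over the naïve course, so its share was highest at 0 h in both arms. Atp5g1 itself (chr11:96072793-96075631, minus strand) had 49.5, 33.4, 39.5, 27.8 and 29.1 RPKM in the pretreated arm and 48.2, 44.0, 40.3, 28.3 and 22.6 RPKM in the naïve arm, and fell by 0.60 on the log2 scale at 2 to 6 h. Atp5g2 and Atp5g3 were not called in that comparison. Isoforms typical of other tissues stayed scarce beside the common form: Cox6a2 made up at most 1.56% of the Cox6a1 and Cox6a2 sum, Cox7a1 at most 0.886% of its pair with Cox7a2, Cox6b2 at most 0.918%, Cox4i2 at most 0.103% and Cox8b at most 0.0336%.

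Ndufa4 was first listed in complex I, as its symbol says, and is now known as a subunit of complex IV. It had 176, 214, 209, 214 and 250 RPKM in the pretreated arm and 224, 191, 236, 252 and 297 RPKM in the naïve arm, and rose by 0.35 on the log2 scale at 2 to 6 h. After GC rescaling the value was 0.10 and not called (adjusted p = 0.437, edgeR), and the call held in 6 of 20 alternatives. AA467197, also called Nmes1, encodes a small relative of Ndufa4 whose human counterpart is known to take the place of NDUFA4 in cytochrome c oxidase during inflammation. It had 7.42, 14.8, 40.2, 59.1 and 91.0 RPKM in the pretreated arm and 0.351, 3.47, 17.2, 64.9 and 94.5 RPKM in the naïve arm. The level thus went up at each step in both arms, and the log2 fold change at 2 to 6 h was 4.33 ± 0.92 (adjusted p = 0.0121, edgeR), or 3.94 after GC rescaling. The ratio of Ndufa4 to AA467197 in RPKM was 2.75 in the pretreated and 3.14 in the naïve 6 h library, and 23.7 in the pretreated and 639 in the naïve 0 h library. Between the arms over all times, the AA467197 difference of 1.198 did not pass the threshold (adjusted p = 0.274, edgeR).

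**Figure D5:**
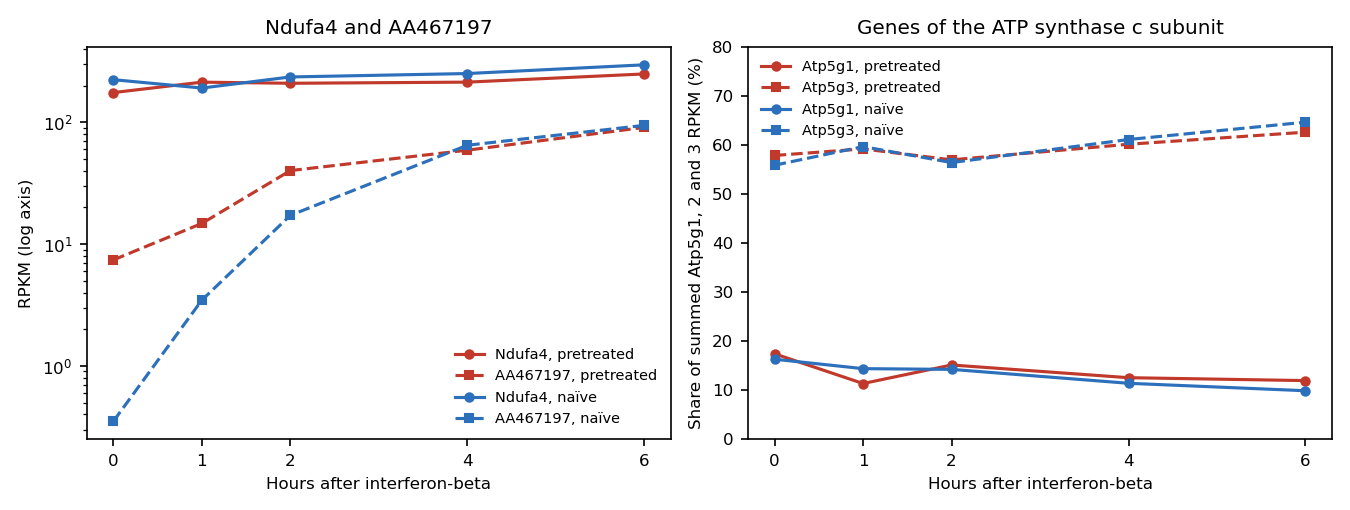
Left: RPKM (log axis) of Ndufa4 (solid) and AA467197 (dashed) against hours after interferon-beta, pretreated in red and naïve in blue, 1 library per point; AA467197 reaches 91.0 RPKM in the pretreated and 94.5 RPKM in the naïve arm at 6 h. Right: share of Atp5g1 (solid) and Atp5g3 (dashed) in the summed RPKM of Atp5g1, Atp5g2 and Atp5g3; the naïve Atp5g1 share is 9.86% at 6 h and 16.3% at 0 h.

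Other genes that serve respiration were read from lists, at 2 to 6 h against 0 h in the same fit, where 19.9% of all genes were called higher and 20% lower (13.9% each after GC rescaling). Of 13 assembly factors of complex I, 4 rose and 1 fell: Nubpl, which delivers iron-sulfur clusters, by 1.23 on the log2 scale, Tmem126b and Foxred1 each by 0.70, and Ndufaf1 by 0.49, while Ecsit fell by 0.55. After GC rescaling 3 of the 13 were called higher and 1 lower, Tmem126b being lost. Of 25 assembly factors of complexes II to V, 7 rose and 4 fell, and after GC rescaling 4 were called higher and 3 lower. The largest rise was that of Cox18, which helps insert a complex IV core subunit into the membrane, with 37.3 RPKM at 6 h against 15.0 RPKM at 0 h in the pretreated arm, and 40.9 RPKM at 6 h against 10.7 RPKM at 0 h in the naïve arm. Its log2 fold change was 1.56 ± 0.16, and 1.68 after GC rescaling. The largest fall was that of Sdhaf1, an assembly factor of complex II, at -1.001 ± 0.18. Of the electron carriers and partner proteins, 3 of 11 rose and 3 fell; Cycs, the electron carrier cytochrome c, rose by 0.66, and Cyc1, the cytochrome c1 subunit of complex III whose name the rule does not take, fell by 0.27. After GC rescaling 0 of the 11 were called higher and 1 lower, and neither Cycs nor Cyc1 was called.

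In the citric acid cycle 3 of 17 genes rose and 6 fell, and in glycolysis 1 of 16 rose and 8 fell, with a median of -0.28. After GC rescaling the citric acid cycle had 0 called higher and 2 lower, and glycolysis 1 higher and 4 lower, with a median of -0.11. Of 11 genes of ubiquinone synthesis, 3 rose and 4 fell, and after GC rescaling 2 were called higher and 2 lower. The largest of these changes was the rise of Coq10b, a lipid-binding protein needed for ubiquinone function, at 0.92. Of 76 genes of mitochondrial ribosomal proteins, 6 rose and 25 fell, with a median of -0.21, and after GC rescaling 5 were called higher and 20 lower. Of 19 genes of mitochondrial import and chaperones, 2 rose and 4 fell, and after GC rescaling 0 were called higher and 2 lower. Of 13 regulators of mitochondrial biogenesis, 0 rose and 2 fell: Polrmt, the mitochondrial RNA polymerase, at -0.54, and Tfb2m, its partner factor, at -0.49; after GC rescaling Polrmt stood at -0.17 and was not called, and of 12 with a GC share 0 were called higher and 2 lower. Of 3 tested genes that tie respiration to immune stimulation, AA467197 rose and Mavs, the mitochondrial antiviral adaptor, fell by 0.55, and after GC rescaling 1 was called higher and 1 lower. Transcripts of the mitochondrial genome were not analysed here.

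Promoters were read because many of these genes are known targets of NRF1, of ETS factors such as GABPA and of YY1, while interferon acts through the ISRE and GAS elements. RefSeq promoters (GRCm38.p6; 250 bases before to 50 after the start) matched 69 of the 84 genes, with 75 promoters, and were searched on both strands. The NRF1 core site GCGCATG was in 17.3% of the subunit promoters against 3.91% of all 32851 promoters, the ETS site CCGGAAG in 21.3% against 8.86%, and the YY1 site AAGATGG in 17.3% against 6.34%. The ISRE letters, which are a pair of GAAA runs spaced by any 2 bases, were in 2.67% against 3.44%, and the GAS letters TTCNNNGAA in 8% against 8.30%. An ETS site followed by ATGG would share the letters AAG with a YY1 site. An ETS site right after TTC would share the letters CCGGAA with a GAS match. The shares of these motifs are thus not fully separate. Of the 20 genes called lower that had a promoter, 6 held the NRF1 core site and 7 the ETS site, and of the 42 not called 7 held the NRF1 core site and 9 the ETS site. The comparison set of all promoters includes those of genes not tested here, and it was not matched for base composition. A match is a run of letters and no measured binding.

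The bases before the start are shown for 4 genes, on the minus strand as transcribed, with motif matches in capitals. Atp5k (chr5:108434400-108434649) and Cox6a1 (chr5:115348959-115349208) were called lower, though not after GC rescaling. They are examples with the NRF1 core site, which 6 of the 20 genes called lower with a promoter held. Others called lower, such as Atp5b and Atp5g1, held none of the motifs. Atp5j had 2 promoters, and the window shown (chr16:84834977-84835226) holds an ETS and a YY1 site close together. That window lies inside the span of the counted Atp5j transcript. The other Atp5j window (chr16:84835626-84835875), before the start of that transcript, holds none of the motifs. Ndufs3 (chr2:90904722-90904971) is 1 of the 2 genes with ISRE letters, the other being Ndufa9.
Atp5k: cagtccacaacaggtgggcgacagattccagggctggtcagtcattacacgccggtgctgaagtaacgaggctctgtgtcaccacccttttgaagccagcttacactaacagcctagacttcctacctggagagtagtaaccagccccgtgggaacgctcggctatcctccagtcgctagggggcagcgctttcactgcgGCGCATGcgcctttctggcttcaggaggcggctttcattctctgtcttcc
Cox6a1: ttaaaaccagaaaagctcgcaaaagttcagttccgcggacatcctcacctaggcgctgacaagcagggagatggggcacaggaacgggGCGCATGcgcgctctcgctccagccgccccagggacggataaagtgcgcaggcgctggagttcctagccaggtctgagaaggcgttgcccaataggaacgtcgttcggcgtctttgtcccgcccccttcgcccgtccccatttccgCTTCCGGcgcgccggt
Atp5j: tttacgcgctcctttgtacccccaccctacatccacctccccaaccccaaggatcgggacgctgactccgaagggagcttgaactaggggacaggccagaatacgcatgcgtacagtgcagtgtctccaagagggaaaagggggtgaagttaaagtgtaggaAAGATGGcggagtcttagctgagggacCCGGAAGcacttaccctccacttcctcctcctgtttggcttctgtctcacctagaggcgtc
Ndufs3: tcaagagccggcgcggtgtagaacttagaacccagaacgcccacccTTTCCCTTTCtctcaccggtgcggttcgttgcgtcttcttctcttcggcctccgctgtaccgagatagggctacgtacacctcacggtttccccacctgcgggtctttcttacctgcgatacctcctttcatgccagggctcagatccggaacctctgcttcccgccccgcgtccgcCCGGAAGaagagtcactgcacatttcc
The capitals are the NRF1 core site in Atp5k (bases -50 to -44), the NRF1 core site and the reverse complement of the ETS site in Cox6a1 (-162 to -156 and -16 to -10), the YY1 and ETS sites in Atp5j (-88 to -82 and -61 to -55), and the reverse complement of the ISRE letters and the ETS site in Ndufs3 (-204 to -195 and -27 to -21). Atp5j codes for coupling factor 6 of ATP synthase and its span overlaps that of Gabpa, on the other strand, by 451 bases. Ndufs3, a core subunit of complex I, was not called at 2 to 6 h; it had 16.8, 20.1, 20.9, 16.5 and 17.5 RPKM in the pretreated arm and 16.5, 15.3, 17.2, 16.3 and 17.2 RPKM in the naïve arm. Ndufa9 was not called either.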

How the data were processed

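RNA of 10 MEF libraries was counted per transcript. Bowtie, TopHat, Cufflinks 1.2.1 and the build mm10 appear, with no role, in the submitters' processing notes. The counter, strand use and multi-mapping are not stated there, so processed pseudogenes, near-identical genes and overlapping genes may share reads. Per the file headers, the table holds tag counts, deposited unnormalised, and RPKM values computed by the authors. Of 30646 rows, 15 named no gene (0.0157% to 0.0193% of counts) and were left out.

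Genes with at least 1 RPKM in 2 libraries were tested with edgeR 4.0.16 (glmQLFit, glmQLFTest, TMM scaling) in a model of arm and time, with 4 residual degrees of freedom, or with an arm by stimulation term, with 3. All 6 tests were two-sided, with Benjamini-Hochberg adjustment over 12168 genes and a threshold of 0.05. SE is the log2 fold change over the root of F. DESeq2 1.42.0 and limma 3.58.1 on log2(RPKM + 1) were alternatives, as were other scalings, no filter, summed rows and leaving out each library; scaling by GC share, or by GC share and length, was added after seeing the data. Single libraries were compared on log2(RPKM + 1) at 2-fold, without tests; this fold is too small for low genes. The code was tested on simulated counts. GC share and length came from GENCODE M21 transcripts by RefSeq identifier, for all 77 subunit genes tested. Named genes were, per test, the 10 largest rises and falls called (or the 3 of smallest p), the 4 most abundant genes per complex, tissue isoforms, genes failing the filter and called genes of the lists; other genes of a complex may be named beside its count, and the rest, chosen after their values were seen, illustrate a rescaled call or a promoter. Subunit genes and lists were chosen with earlier results of these data known.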

Additional observations from a re-analysis of the deposited data

Results flagged for a closer look

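Ndufb2, an accessory subunit of the membrane arm of complex I, moved in opposite ways in the arms. It had 29.3, 40.4, 32.4, 31.5 and 33.8 RPKM at 0, 1, 2, 4 and 6 h in the pretreated arm, where every later library was above 0 h. It had 44.8, 34.1, 38.9, 31.7 and 29.8 RPKM in the naïve arm, where every later library was below 0 h. The difference between the arms in the change from 0 h was 0.63 ± 0.22 on the log2 scale, with an unadjusted p of 0.0288 and an adjusted p of 0.777 in edgeR's test of the arm by stimulation term, so it did not pass the threshold. The value rests on 1 library per arm at 0 h.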

How the results depend on the processing

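Counts of called subunit genes are given first, and those of all genes follow where stated. Not every setting is listed. At 2 to 6 h against 0 h, 17 subunit genes were called without the pretreated 1 and 4 h libraries. There were 14 after GC-bin scaling and 15 after GC and length scaling, against 26. Over all genes the counts in these settings were 4105, 3318 and 3294, against 4859. Uqcrc1 turned to 0.0114 after GC-bin scaling, with an adjusted p of 0.916 in edgeR. At 1 h, all genes called were 5 with no filter, 236 in DESeq2, and 5 in limma with either pseudocount, against 0. At 6 h, 7 subunit genes were called after either GC scaling, against 17. Over all genes 2681 were called after GC-bin scaling and 2626 after GC and length scaling, against 3984. For 4 and 6 h against 1 and 2 h, subunit genes called were 14 with the authors' RPKM scaling, 2 with no filter and 13 in DESeq2, against 5. They were 14 in limma with either pseudocount, 1 without the pretreated 1 and 4 h libraries and 3 after GC-bin scaling. All genes called were 2522 with the authors' RPKM scaling, 2125 with no filter and 3594 in DESeq2, against 2340. They were 2583 in limma with a pseudocount of 1 and 2445 with 0.1, 924 without those 2 libraries and 2039 after GC-bin scaling. Between the arms, DESeq2 called 1 subunit gene, against 0; all genes were 317 with no filter, 1371 in DESeq2 and 14 without the pretreated 1 and 4 h libraries, against 154. For the arm by stimulation term, all genes were 13 with the authors' RPKM scaling, 28 with no filter, 133 in DESeq2, 15 in limma with a pseudocount of 1 and 23 with 0.1, against 0. At 2-fold, 1 subunit gene stood apart at 0 h between pretreated and naïve with a pseudocount of 0.1, against 0, and 0 at 6 h against 0 h in the naïve arm on TMM-scaled CPM, against 1. Leaving out 1 library at a time, subunit genes called ranged from 0 to 29 at 2 to 6 h, 0 to 0 at 1 h, 0 to 22 at 6 h, 0 to 6 for late against early times, 0 to 0 between the arms and 0 to 0 for the arm by stimulation term; all genes ranged from 8 to 4983, 0 to 24, 8 to 4167, 51 to 2702, 2 to 175 and 0 to 0. Where a library is left out at 0 h, the lone 0 h library is assumed to vary like the others. The cause of these moves was not tested, except that fewer libraries enter where some are left out. No paired analysis was possible because each arm and time has 1 library and the labels carry no replicate numbers; time is already a term of the model. Of the 26 subunit genes called at 2 to 6 h, Ndufa3 held its call in 19 of 20 alternatives and Ndufs1, Ndufa4 and Uqcrc2 in 6 of 20 each. The lowest count of a tested subunit gene in any library was 125.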

Other observations

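Cycs, the electron carrier cytochrome c, had 6.20, 5.18, 10.1, 8.99 and 11.8 RPKM at 0, 1, 2, 4 and 6 h in the pretreated arm and 6.70, 5.28, 8.36, 8.62 and 10.8 RPKM in the naïve arm. Every library of 2 to 6 h was above every library of 0 and 1 h, while Cyc1, which passes electrons to it within complex III, had 81.9, 71.6, 75.7, 57.1 and 62.7 RPKM in the pretreated arm and 77.9, 74.9, 73.3, 58.9 and 55.3 RPKM in the naïve arm. After GC rescaling neither was called (adjusted p = 0.0713 for Cycs and 0.403 for Cyc1, edgeR).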
